A study of Acipenser ruthenus with 15 samples.

Results

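Among the RNAs of sterlet eggs, 249 assembled transcripts lay mostly on the vegetal side and still kept a measurable level on the animal side. The sterlet, Acipenser ruthenus, is a small sturgeon. They were chosen from the deposited counts by 3 limits. The mean level over the 15 libraries was at least 10 and below 600 CPM, a count relative to the size of its library, with sizes scaled between libraries by the TMM method. Section E at the vegetal pole held under 50% of the level summed over the 5 sections, and sections A and B at the animal side together held above 5% and at most 15%. An even transcript would have 20% in each section and 40% in A plus B. These limits chose 249 of 13132 transcripts in that level range and of 42878 in all. The same values describe the set, so its low animal share is no finding and carries no test.

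The eggs were labelled as oocytes of stage 1 without treatment or genotype. Each of 3 eggs, numbered 10, 18 and 20, was embedded, cut frozen with a cryostat and split into 5 sections named A to E from the animal to the vegetal pole. Each section gave 1 library, so every section has n = 3, and 1 egg fills all 5 sections with the same numbers. The labels do not say whether the eggs came from 1 female, so the p-values speak for these eggs only. With the egg in the model, they rest on how far differences between sections vary from egg to egg, not on level differences between eggs. Library totals ran from 4347026 to 14500611 counts.

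In fish and amphibian eggs, the animal pole holds the nucleus and the vegetal pole the bulk of the yolk. Eggs store maternal RNAs that are used before the embryo transcribes its own genome, and some are moved to the vegetal cortex while the oocyte grows. In the frog Xenopus, vegetally stored RNAs include those for factors that specify endoderm and mesoderm and those of the germ plasm, the cytoplasm inherited by germ cells. The deposited files list transcripts by assembly ID only, and 0 of the 42878 IDs matched the table of annotated sterlet genes, so no gene name or role is given and lists of germ plasm or follicle cell genes could not be applied. An ID with DN has the form used by Trinity for an assembly without a genome, and one with GG the form for an assembly guided by a genome.

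From the animal to the vegetal pole, the median shares of the 5 sections were 4.20, 6.29, 20.0, 31.6 and 37.1%. The median thus equalled an even share in the centre of the egg and lay above it in both vegetal sections. These are levels relative to the other RNAs of a section, and amounts of RNA per section are not known here. The profile depends on the scaling. With a spike-in, counted in every library, as scaling in place of TMM, the set's median log2 change of D over C was 0.06, against 0.69. The share of A plus B ran from 5.09 to 15%, with a median of 10.7%. The ratio of section E to section A ran from 4.25 to 30.9, with a median of 9.07. No transcript of the set had 0 counts in any of the 15 libraries. The lowest library value was 2 counts, and the sum over the 3 libraries of section A ran from 22 to 4203 counts, with a median of 172. All 249 passed the filter on low counts, to which the level limit contributes.

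**Figure D1:**
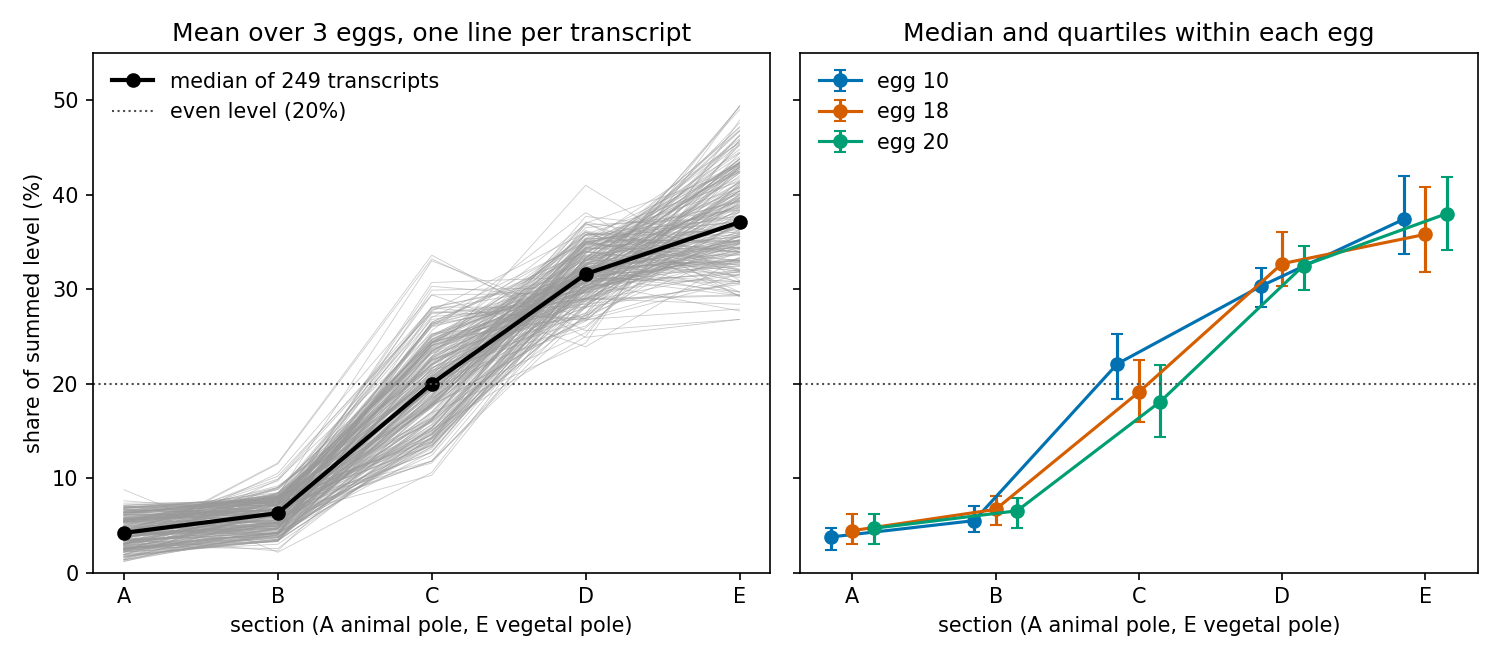
Share of the summed TMM-scaled level (%) in each section, A at the animal and E at the vegetal pole. Left, one grey line per transcript from means over 3 eggs, with the median of the 249 in black. Right, median and quartiles over the transcripts within eggs 10, 18 and 20. The median rises from 4.20% in A to 37.1% in E, and section C of egg 10 has a higher median (22.1%) than section C of eggs 18 and 20 (19.1 and 18.1%).

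Together these transcripts took 0.354 ± 0.0114% of the counts of section A and 0.538 ± 0.0261% of those of B (SD, n = 3). In section C they took 1.69 ± 0.263%, and in sections D and E 2.58 ± 0.162% and 2.96 ± 0.145%. The highest section mean was E for 207 transcripts, D for 38 and C for 4. The highest section was the same in all 3 eggs for 133 of the 207, for 4 of the 38 and for 2 of the 4. The order of D and E was thus mostly not repeated from egg to egg among those highest in D. Section means were higher at every step from A to E for 187 of the 249, beside 1778 of the 13132 transcripts of the level range. Single-egg levels were so in each of the 3 eggs for 85 of the 249, and this count over the level range is not given. The limit on A plus B bears on this order, so the counts are descriptions.

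At the limits of the rule, the highest share of A plus B inside was 15% and the lowest outside 15.02%, and the lowest inside was 5.087% with 4.885% next below. The highest share of E inside was 49.43%, with 50.2% next above. By level, the lowest transcript inside stood at 10.05 CPM with 9.979 CPM next below, and the highest inside stood at 563 CPM with 664.8 CPM next above. Of the transcripts that met both share limits, 4 stood at 600 CPM or more and 101 between 5 and 10 CPM.

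The 2 transcripts whose 5 shares lay nearest to the medians show the typical profile. trinitytrinLocGG_113770c0g1t1 stood at 54.1, 44.4 and 57.9 CPM in section A of eggs 10, 18 and 20, at 80.7, 70.0 and 86.6 CPM in B, at 278, 141 and 196 CPM in C, at 407, 266 and 325 CPM in D and at 510, 283 and 362 CPM in E. Egg 18 was the lowest in every section, and within each egg the level was higher at every step. trinitytrinLocDN54550c1g1t5 stood at 36.8, 36.5 and 40.4 CPM in A, at 44.0, 38.0 and 36.9 CPM in B, at 141, 124 and 104 CPM in C, at 175, 227 and 210 CPM in D and at 224, 269 and 233 CPM in E. Here sections A and B overlapped, and the C, D and E values lay above both in every egg.

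The rule fixed how much of the level lay in A plus B, not how it was divided between these sections. A test of the step from A to B is still not free of the rule, because the step went with that share. In the same level range, the median log2 change of B over A was 1.31 for 47 transcripts with at most 5% in A plus B. It was 0.11 for 784 transcripts with 15 to 30%. For the 249, the values and calls are therefore descriptions, beside a background not chosen by share. Most transcripts were higher in B than in A. The median log2 fold change of B over A was 0.50, with quartiles of 0.22 and 0.93, against a median of 0.00 over the 28504 transcripts tested. Of the 249, 76 rose from A to B (30.5%) and 1 fell, by edgeR's quasi-likelihood test with Benjamini-Hochberg adjustment at 0.05, section and egg in the model. Over all transcripts tested, 0.733% were called higher in B and 2.73% higher in A. Within the level range of 10 to 600 CPM these shares were 1.26 and 4.34%. All 76 rose in 3 of 3 eggs, which a call in a model of these same eggs favours. Of them, 48 rose by at least 2-fold, and the share of all transcripts tested called with that limit is not given. Called or not, 180 of the 249 were higher in B in each egg and 6 were higher in A in each egg. In single eggs 10, 18 and 20, B was above A for 48.2, 51.2 and 51.4% of all transcripts of the level range. The share of these that agreed in all 3 eggs is not given.

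The largest rise from A to B was that of trinitytrinLocDN49973c3g1t5. It stood at 2.30, 1.81 and 3.63 CPM in A of eggs 10, 18 and 20, at 14.8, 15.3 and 12.0 CPM in B, at 50.5, 37.6 and 34.7 CPM in C, at 56.4, 50.8 and 53.5 CPM in D and at 86.3, 61.0 and 66.5 CPM in E. The B values lay above the A values without overlap, and the values of D and E above those of B in every egg. Its log2 change of B over A was 2.42 ± 0.21 (SE), adjusted p = 3.15e-06 (edgeR), on 79 counts in A and 426 in B. The next, trinitytrinLocGG_6335c0g1t1, stood at 0.974, 1.53 and 1.54 CPM in A, at 7.88, 6.73 and 4.38 CPM in B, at 39.7, 27.6 and 25.2 CPM in C, at 39.4, 34.1 and 36.6 CPM in D and at 48.4, 31.6 and 44.9 CPM in E. It also rose without overlap from A to B, by a log2 change of 2.28 ± 0.28 (SE), adjusted p = 6.69e-05 (edgeR). From C to D its eggs did not move alike, since egg 10 was at nearly the same level in both.

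The single transcript that fell from A to B was trinitytrinLocDN48540c2g1t1. It stood at 1.59, 7.51 and 8.43 CPM in A of eggs 10, 18 and 20, at 1.25, 1.64 and 1.41 CPM in B, at 8.42, 6.55 and 6.14 CPM in C, at 19.5, 24.3 and 19.6 CPM in D and at 36.0, 30.5 and 27.1 CPM in E. In eggs 18 and 20 it was therefore several times higher at the animal pole than in the next section, while in egg 10 both lay close together. Its log2 change was -1.97 ± 0.45 (SE), adjusted p = 0.0191 (edgeR). Without egg 10 the change was -2.39 (adjusted p = 4.26e-05), and the call ended without egg 18 (0.306), without egg 20 (0.444), without either of these eggs' A libraries (0.102 and 0.156), without any 1 of the 3 B libraries (0.0756 to 0.0989) and with the robust variance estimate (0.0825), all by edgeR.

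The number called for B against A rested on the model and on the eggs. It was 36 with no replicate block for the egg and 48 without egg 18. The share called in either direction over all transcripts tested fell as well, to 1.35 and 1.58% in turn, from 3.46%. With the deposited factor, the authors' own scaling, 167 were called, beside 17.7% of all transcripts tested called higher in B and 1.79% lower, and the median of all moved by 0.30. The set's own median was 0.79 with the deposited factor and 0.72 with the spike-in as scaling, against 0.5 with TMM. Relative to the median of all, it was 0.49 with the deposited factor and 0.51 with the spike-in, against 0.49 with TMM. A scaling moves the set and all transcripts nearly alike, so this agreement was fixed beforehand and is no test of the step.

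**Figure D2:**
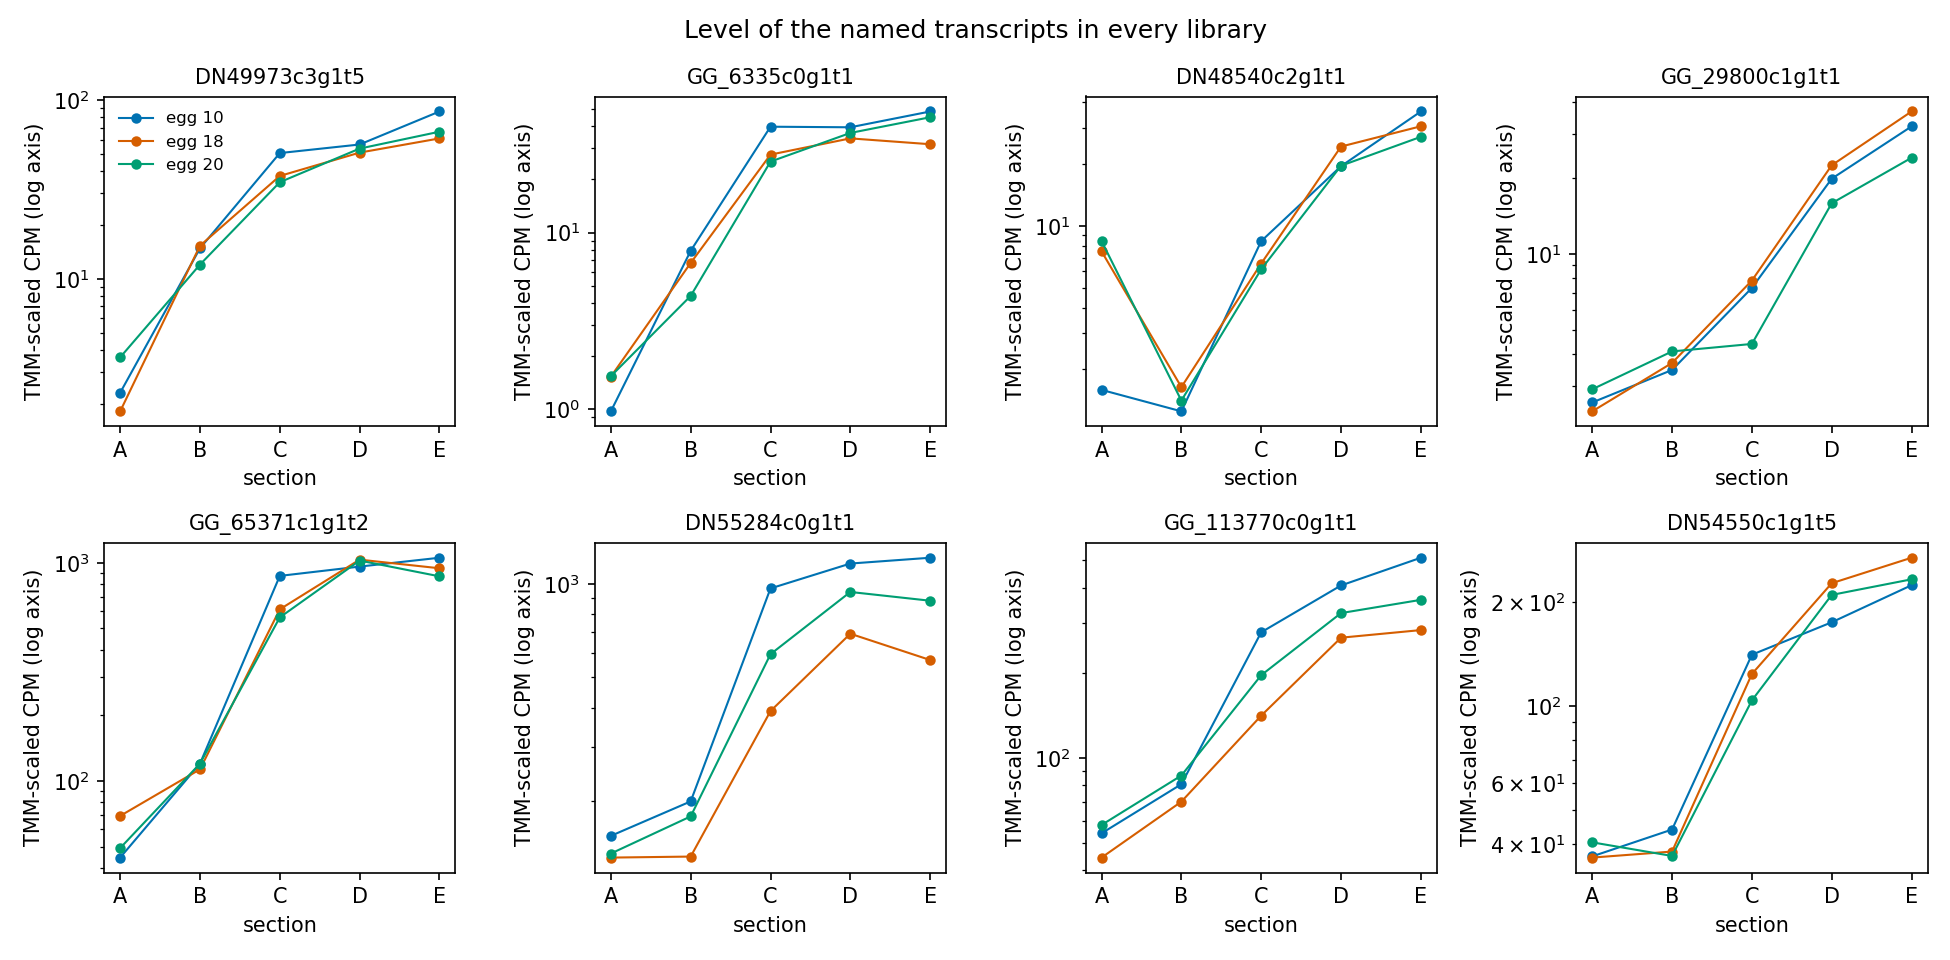
TMM-scaled CPM (log axis) of the 8 transcripts described by name, in every library, with sections A to E on the horizontal axis and 1 line for each of eggs 10, 18 and 20. The levels in A differ most between eggs for DN48540c2g1t1, from 1.59 CPM in egg 10 to 8.43 CPM in egg 20, and DN55284c0g1t1 is lowest in egg 18 in every section.

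The division of the level between C and D was likewise not used by the rule, but this step also went with the share of A plus B. The median log2 change of D over C was 0.94 for the 47 transcripts with at most 5% in A plus B. It was 0.41 for the 784 with 15 to 30%. For the 249, the values and calls are again descriptions. Most transcripts had a higher level in section D than in the centre. The median log2 fold change of D over C was 0.69, with quartiles of 0.42 and 0.96, against 0.00 over all transcripts tested. Of the 249, 127 rose from C to D (51%) and 0 fell by the same edgeR test, while 2 had an unadjusted p under 0.05 for a lower level in D. DESeq2's Wald test called 142 higher in D and 0 lower, beside 2.65 and 0.892% of all transcripts tested. By edgeR, 2.06% of all transcripts tested were called for D and 0.488% for C as the higher section. Within the level range of 10 to 600 CPM these shares were 3.59 and 0.899%. All 127 rose in 3 of 3 eggs, which a call in a model of these same eggs favours. Of them, 55 rose by at least 2-fold, and the share of all transcripts tested called with that limit is not given. Called or not, 219 of the 249 were higher in D in each egg. In single eggs 10, 18 and 20, D was above C for 46.1, 54.3 and 53.5% of all transcripts of the level range. The share of these that agreed in all 3 eggs is not given.

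The largest rise from C to D was that of trinitytrinLocGG_29800c1g1t1. It stood at 2.57, 2.37 and 2.90 CPM in A of eggs 10, 18 and 20, at 3.46, 3.69 and 4.10 CPM in B, at 7.33, 7.84 and 4.39 CPM in C, at 19.9, 22.5 and 15.9 CPM in D and at 32.1, 36.8 and 24.1 CPM in E. D lay above C without overlap, and section E held 49.0% of its summed level, close to the limit of 50%. The log2 change of D over C was 1.55 ± 0.18 (SE), adjusted p = 7.54e-05 (edgeR). The second largest belonged to trinitytrinLocDN48540c2g1t1, the transcript that fell from A to B, at 1.52 ± 0.33 (SE), adjusted p = 0.0161 (edgeR). This call ended without egg 18 (0.249) or egg 20 (0.176), without section C or D of egg 18 (0.0919 and 0.0972), section D of egg 10 (0.0551) or section C of egg 20 (0.107), with no egg block (0.134) and with the robust variance estimate (0.0693).

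The 2 transcripts with the highest CPM, which is not a level per length, had values in D and E that overlapped between eggs. trinitytrinLocGG_65371c1g1t2 stood at 44.5, 69.1 and 49.2 CPM in A of eggs 10, 18 and 20, at 120, 113 and 120 CPM in B, at 871, 612 and 562 CPM in C, at 961, 1034 and 1024 CPM in D and at 1055, 944 and 867 CPM in E. Its eggs were close together in B and D and further apart in A and C, and egg 10 was the highest in C. It rose from A to B by a log2 change of 1.12 ± 0.15 (SE), adjusted p = 0.00022 (edgeR), and from C to D by 0.57 ± 0.14 (SE), adjusted p = 0.0456 (edgeR). trinitytrinLocDN55284c0g1t1 stood at 155, 132 and 136 CPM in A, at 200, 133 and 179 CPM in B, at 966, 390 and 594 CPM in C, at 1161, 691 and 941 CPM in D and at 1212, 569 and 882 CPM in E. Egg 18 was the lowest in every section, and the sections of the vegetal side overlapped between eggs. It was called higher in D than in C, at 0.57 ± 0.14 (SE), adjusted p = 0.0369 (edgeR), and its B over A value was 0.25 ± 0.14 (SE), adjusted p = 0.619 (edgeR). Both D over C calls ended under 5 other settings, with total counts only (0.0626 and 0.0535), the deposited factor (0.336 and 0.317), the spike-in (0.827 and 0.83), no egg block (0.32 and 1) and the robust variance estimate (0.0991 and 0.0736). They also ended on leaving out egg 18 (0.227 and 0.14) or egg 20 (0.687 and 0.513), and on leaving out 1 library in 11 and 7 of 15 cases.

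Of the pair nearest to the medians, trinitytrinLocGG_113770c0g1t1 rose from A to B by 0.61 ± 0.13 (SE), adjusted p = 0.0121 (edgeR), and from C to D by 0.72 ± 0.13 (SE), adjusted p = 0.00313 (edgeR). For trinitytrinLocDN54550c1g1t5 the D over C value was 0.72 ± 0.12 (SE), adjusted p = 0.00215 (edgeR), and the B over A value 0.06 ± 0.13 (SE), adjusted p = 0.962 (edgeR). The A to B call of the former ended without egg 18 or egg 20 (0.142 for each), without section B of egg 18 (0.108) or of egg 20 (0.0798) and with no egg block (0.657). The C to D calls of both ended with the spike-in (0.75 and 0.78), without egg 18 (0.0817 and 0.0887) and without egg 20 (0.112 and 0.206), and that of the former also with no egg block (0.524).

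The C to D count was 60 with no replicate block for the egg, 72 without egg 18 and 49 without egg 20. The share called in either direction over all transcripts tested fell as well, to 0.66, 0.962 and 0.499% in turn, from 2.54%. With the spike-in as scaling 17 were higher in D and 8 in C, beside 0.302 and 41% of all transcripts tested. With the deposited factor they were 92 and 5, beside 1.1 and 33.3%. The set's own median was 0.06 with the spike-in and 0.29 with the deposited factor, against 0.69 with TMM. The spike-in moved the median of all transcripts tested by -0.65 and the deposited factor by -0.40. Relative to that median the set's median was 0.71 and 0.69, against 0.69 with TMM. A scaling moves the set and all transcripts nearly alike, so this agreement was fixed beforehand and is no test of the step. The spike-in itself was 1.56 times as high in D as in C and the deposited factor 1.32 times, and their part in the step was not tested beyond these scalings.

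For the other steps the limits on A plus B and E enter directly, so these too are values only. The median log2 change of C over B was 1.71, with 247 of 249 called higher in C beside a background of 5.51%. For E over A it was 3.16, with 249 called beside 17.6%. For E over D it was 0.22, with a range of -0.41 to 0.93 and 13 called higher in E beside 0.425%.

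Transcripts differed in where the smaller steps lay. The signed log2 change from A to B was subtracted from that from C to D in 1 contrast of the same model. The difference was positive in 35 transcripts and negative in 26 (edgeR, Benjamini-Hochberg adjusted), against a background of 1.3 and 0.323% of all transcripts tested and 2.49 and 0.548% of those of 10 to 600 CPM. One of the 35, trinitytrinLocDN48540c2g1t1, enters through its fall from A to B, which is larger in size than its rise from C to D, while in the other 34 the change from C to D was also the larger in size. Both groups were picked by this contrast from the same libraries, so the form of their profiles follows from the choice and is a description. From A to E, the 35 had median shares of 5.66, 5.62, 14.1, 31.9 and 43.3%, nearly equal in both animal sections and low in the centre, and all 35 were highest in E. The 26 had median shares of 2.66, 7.01, 26.2, 29.9 and 34.6%, lowest at the animal pole and with a centre nearly as high as D. Of the 26, 20 were highest in E, 4 in D and 2 in C. Their shares of A plus B covered much of the same range, 5.19 to 15% for the 35 and 5.58 to 14.7% for the 26.

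These 2 shapes differed in level too. The median was 105 CPM for the 35, 41.2 CPM for the 26 and 23.8 CPM for the 188 transcripts in which the difference was not called, and a higher level gives more counts to call a step with. By level, 22.4% of the 85 transcripts from 10 to 20 CPM were called higher in B and 45.9% higher in D, against 40.7 and 77.8% of the 54 from 100 to 600 CPM. Between them the shares were 32.5 and 43.8% from 20 to 50 CPM and 30 and 36.7% from 50 to 100 CPM. Within the set, calls thus did not rise steadily with level. The shares called over all transcripts at each of these levels are not given, so no trait of the set is read from them. From low to high level, the median log2 change of D over C was 0.73, 0.58, 0.54 and 0.87, and that of B over A 0.49, 0.56, 0.55 and 0.36. The part of level in the difference between the shapes was not tested.

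Both steps were called as rises in 20 transcripts, which is 26.3% of those that rose from A to B and 15.7% of those that rose from C to D, and neither in 66. These are 8.03 and 26.5% of the set, beside 0.196 and 97.4% of all transcripts tested and 0.404 and 95.6% of those of 10 to 600 CPM. Across the 249 transcripts, the log2 changes of B over A and of D over C had a Spearman rho of -0.611, against 0.209 across the 13132 transcripts of the level range. These steps share no library but come from the same eggs, transcripts are not independent replicates, and the rule limits the shares from which the steps are formed, so the values are descriptions.

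The contrast of the steps depended on the eggs and on the scaling. It called 11 transcripts with no egg block, 8 without egg 18, 12 without egg 20 and 40 without section B of egg 10. The share called over all transcripts tested fell as well, to 0.232, 0.231, 0.175 and 1.07% in turn, from 1.62%. With total counts only the contrast was positive in 24 and negative in 31, beside 0.701 and 0.467% of all transcripts tested. With the deposited factor it was positive in 8 and negative in 99 (3.21 and 39.8% of the set), beside 0.43 and 44.9% of all transcripts tested. With the spike-in it was positive in 1 and negative in 88 (0.402 and 35.3%), beside 0.199 and 28.9%. The negative calls of the set under these 2 scalings thus lay near the share over all transcripts. The set's own median difference was 0.19 with TMM, -0.5 with the deposited factor and -0.66 with the spike-in, so its sign changed with the scaling. Relative to all transcripts, the median of the set was 0.18 with the deposited factor and 0.19 with the spike-in, as against 0.18 with TMM. A scaling moves the set and all transcripts nearly alike, so this agreement is no test of the contrast.

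**Figure D3:**
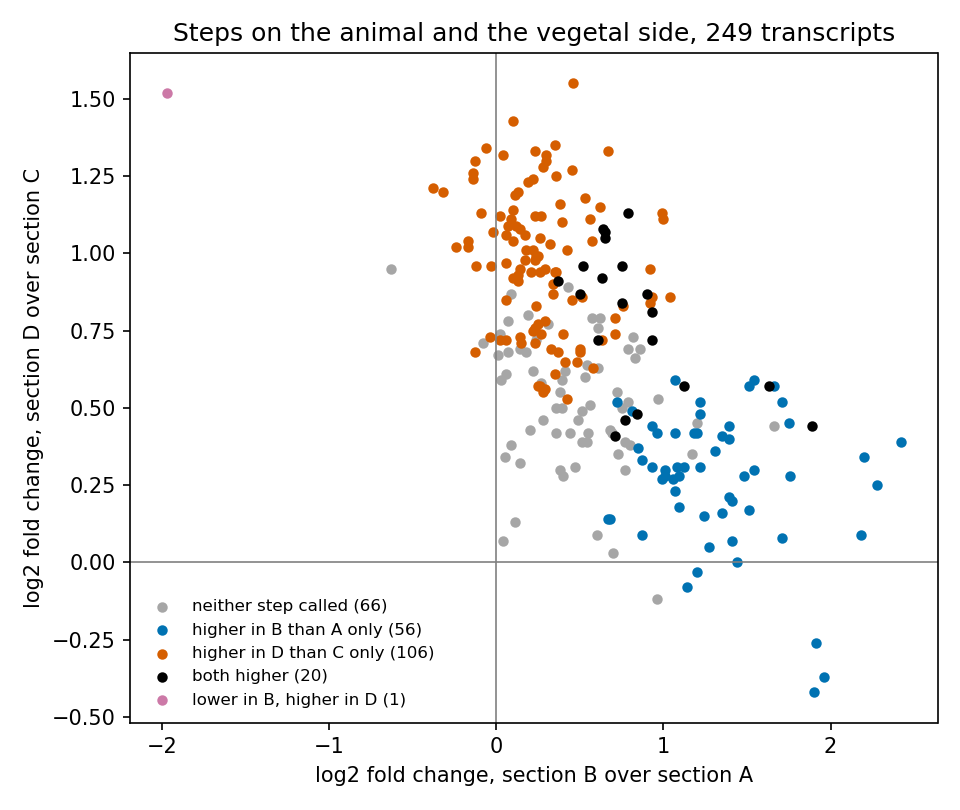
Log2 fold change of section B over A (horizontal axis) against that of section D over C (vertical axis) for the 249 transcripts, from edgeR over 3 eggs, coloured by which step was called at an adjusted p under 0.05. The largest A to B steps (2.42 and 2.28) go with C to D steps of 0.39 and 0.25. The largest C to D step (1.55) goes with an A to B step of 0.46. Across the points Spearman rho is -0.611. The point at the upper left in its own colour is trinitytrinLocDN48540c2g1t1, which fell from A to B and rose from C to D.

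Whether the animal share repeats was read in an egg that the choice did not use. The rule was applied to 2 eggs at a time and the chosen transcripts were read in the third. With egg 10 left out, 218 were chosen, and in egg 10 their median share of A plus B was 9.20%, with quartiles of 6.81 and 11.9%. With egg 18 left out, 262 were chosen, with a median of 11.9% in egg 18 and quartiles of 8.20 and 14.5%. With egg 20 left out, 257 were chosen, with a median of 11.8% in egg 20 and quartiles of 8.71 and 14.3%. In the egg left out the share lay within 5 to 15% for 80.3, 77.1 and 77.8% of the chosen transcripts in turn, above it for 25, 53 and 51 transcripts, and at or below 5% for 18, 7 and 6. It stayed under the even share of 40% for every chosen transcript, and the median over all transcripts of 10 to 600 CPM in those eggs was 40.2, 40.2 and 40.1%.

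The order of the neighbouring sections was read the same way. In the egg left out, B was above A for 89.9, 85.5 and 80.9% of the chosen transcripts in eggs 10, 18 and 20, against 48.2, 51.2 and 51.4% of all transcripts of the level range. D was above C for 91.7, 95.8 and 94.6% of them, against 46.1, 54.3 and 53.5%. With 3 eggs these are 3 values each and no test was made. Within the 249 themselves, 164 had A plus B inside 5 to 15% in every egg, and the single-egg share ran from 3.15 to 24.6%.

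**Figure D4:**
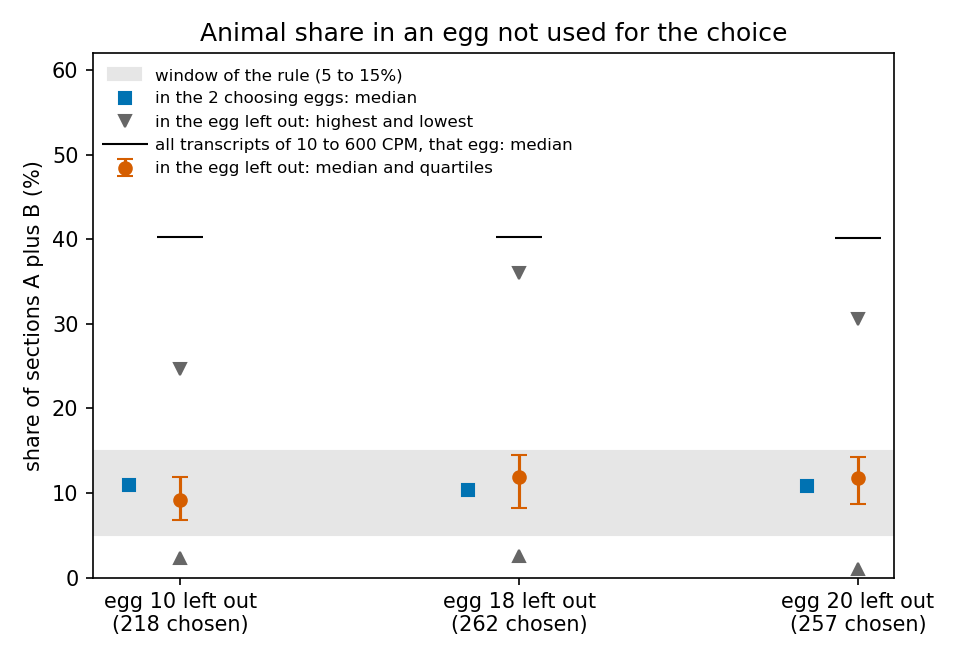
Share of sections A plus B (%) in the egg left out, for transcripts chosen from the other 2 eggs, with the median and quartiles as points and bars and the highest and lowest as triangles. Squares are the medians in the choosing eggs, the grey band is the window of the rule and black lines are medians over all transcripts of 10 to 600 CPM. The medians of 9.20, 11.9 and 11.8% fall inside the window, and the highest transcript reaches 36.0%.

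The overall level of these transcripts varied between eggs. The ratio of the highest to the lowest egg mean had a median of 1.34, and 35 of 249 transcripts (14.1%) differed at least 2-fold between eggs, against 696 of 13132 (5.3%) in the level range. The highest egg mean was in egg 10 for 152 transcripts, in egg 18 for 60 and in egg 20 for 37, and for the 35 it was in egg 10 for 30 and in egg 20 for 5. How often each egg was the highest over the level range is not given, so no trait of the set is read from these counts. A plus B stayed within 5 to 15% in every egg for 15 of the 35 (42.9%) and for 149 of the other 214 (69.6%). The widest, trinitytrinLocGG_70919c0g1t1, was singled out after its values were seen. It had a mean of 2.39 CPM in egg 10, 19.3 CPM in egg 18 and 22.1 CPM in egg 20, with a share of A plus B of 24.6, 7.76 and 6.06%, so its animal share was highest in the egg where its level was lowest.

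Transcripts of the same Trinity gene did not always share the profile. The 249 came from 245 Trinity genes, 4 of which gave 2 transcripts each. In these 8 transcripts the D over C value ran from 0.44 to 1.30 on the log2 scale, with 5 called higher in D and 1 called higher in B. Outside the set, 22 further transcripts belong to the same Trinity genes, of which 16 stood at 1 CPM or more. Of the 16, 4 had a share of A plus B between 5 and 15%, 10 lay above and 2 at or below 5%. Some of those above lay just over the limit, at 15.3, 15.5 and 15.7%, on 1049, 175 and 219 counts over the 15 libraries. Transcripts of 1 gene can share reads, and how the counting divided such reads is not stated in the labels, so their separate levels are uncertain.

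At 10 CPM or more only 2 of these 22 were found, named here for that level. trinitytrinLocDN49973c3g1t3 is of the same Trinity gene as trinitytrinLocDN49973c3g1t5, which had the largest rise from A to B. From A to E its means were 22.5 ± 6.81, 61.9 ± 8.50, 83.2 ± 2.94, 35.3 ± 4.80 and 47.3 ± 11.1 CPM (SD, n = 3). It was highest in the centre, with 33.7% in A plus B against 9.12%. It too rose from A to B, by 1.46 ± 0.19 (SE, log2), adjusted p = 0.000108 (edgeR), but fell by 1.22 from C to D, adjusted p = 0.000775 (edgeR), where the member had a value of 0.39 ± 0.15 (SE), adjusted p = 0.243 (edgeR). trinitytrinLocDN47910c1g1t2 had means of 23.4 ± 7.20, 53.8 ± 6.59, 112 ± 9.90, 73.2 ± 18.7 and 84.5 ± 25.9 CPM from A to E (SD, n = 3), with 22.3% in A plus B against 6.12% for the member of its gene. The difference between transcripts of a gene was not tested.

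The makeup of the set by assembly differed in number from that of its level range. IDs of the GG form made up 99 of the 249 (39.8%), against 2976 of the 13132 transcripts of the level range (22.7%) and 34.6% of all. GG members had a median of 20.8 CPM and DN members 46.5 CPM. The median log2 change of B over A was 0.61 for GG and 0.42 for DN members, and that of D over C 0.59 and 0.72. What the assembly adds to these values was not tested.

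The set lies between other vegetal sets of the same level range. Per egg, the median step from A to B in log2(CPM + 0.5) was 0.52, 0.44 and 0.45 in eggs 10, 18 and 20. For 47 transcripts with at most 5% in A plus B and E under 50% it was 1.21, 1.04 and 1.13, and for 784 transcripts with 15 to 30% in A plus B it was 0.08, 0.14 and 0.09. For 31 transcripts with at least 50% in E it was 0.57, 0.11 and 0.64, which overlaps the set. From C to D the set's medians were 0.47, 0.79 and 0.83, against 1.25, 1.68 and 1.66 for those with at least 50% in E, 0.60, 1.09 and 1.13 for those with at most 5% in A plus B and 0.32, 0.44 and 0.48 for those with 15 to 30%.

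In each egg the set thus had a smaller C to D step than both more vegetal sets and a larger one than the weaker set. An exact two-sided paired permutation test over 3 eggs cannot go below p = 0.25, so it could not decide whether the sets differ. It gave that value in 5 of the 6 comparisons (0.3 after Benjamini-Hochberg adjustment over 6). For the A to B step against the set with at least 50% in E, the same exact test gave p = 1. These sets are cut from the same section shares that form the steps, so their order is a description. The set with at most 5% in A plus B had a median of 43 counts over the 3 libraries of section A, against 172 here. The precision of its A to B step is therefore lower.

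**Figure D5:**
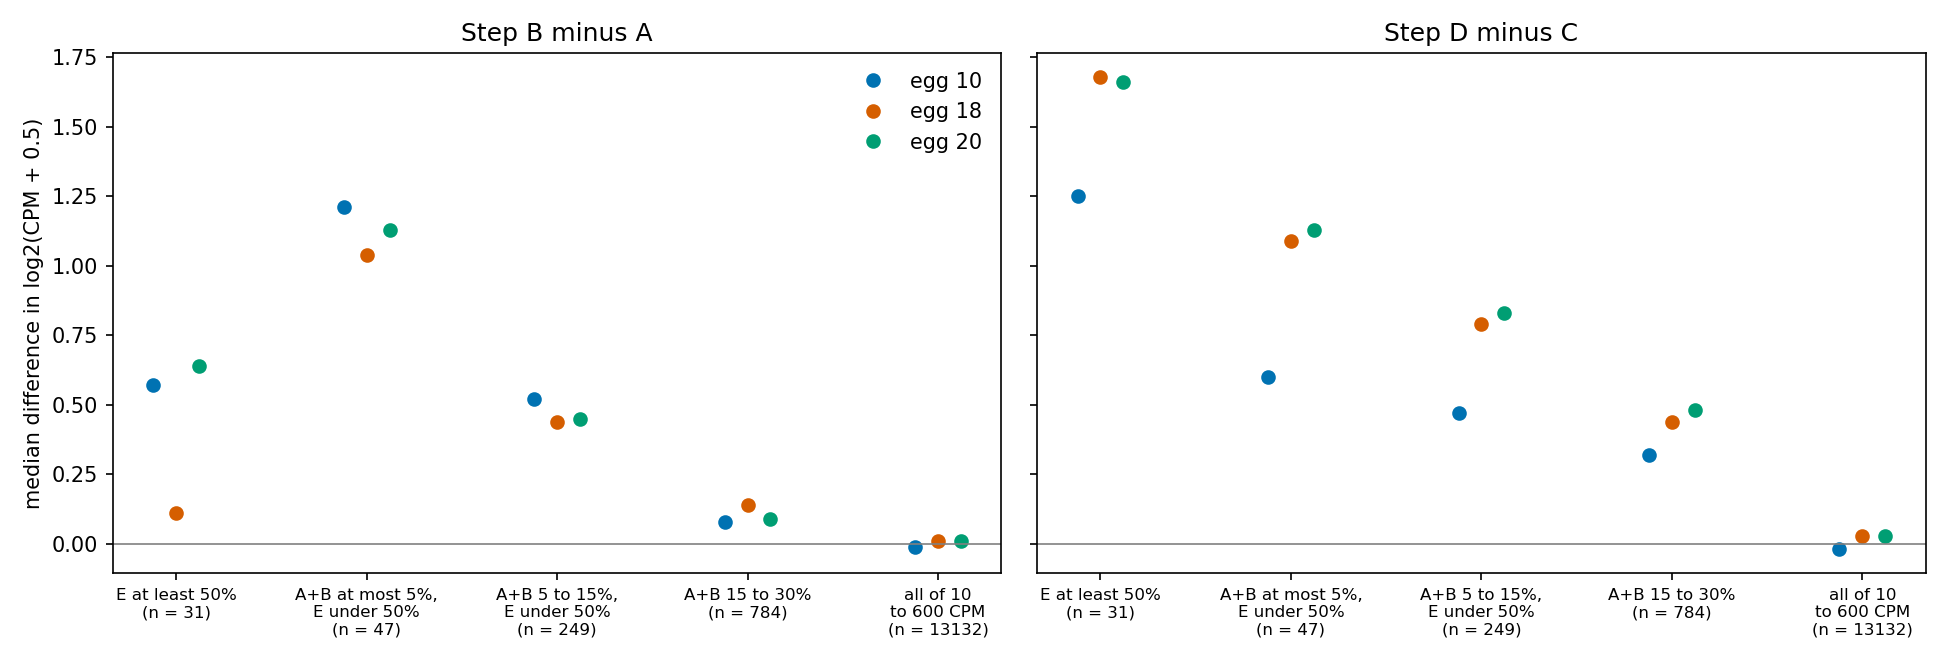
Median step within each egg, in log2(CPM + 0.5), from A to B (left) and from C to D (right), for 4 sets of transcripts of 10 to 600 CPM defined by their shares and for all transcripts of that range. The 249 transcripts (middle position) have steps of 0.44 to 0.52 from A to B and 0.47 to 0.83 from C to D, in each egg between those of the sets drawn on either side, while all transcripts of the range lie within -0.02 to 0.03.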

How the data were processed

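RNA of 15 libraries, 5 sections of each of 3 eggs, was sequenced after removal of ribosomal RNA, with strand-specific libraries, per the labels' protocols. The authors deposited whole-number counts per assembled transcript and a normalized signal. In each library the ratio of the count to this signal was 1 fixed number, here called the deposited factor (relative range of the ratio at most 9.8e-10 above 50 counts). Tools named in the submitters' processing notes, without their roles, are DESeq2, kallisto, STAR 2.5.2b and Trimmomatic. The members and lists were chosen with earlier results of these data known, and the summaries by level, step shape, egg level, assembly form and Trinity gene were chosen after the values were seen.

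The spike-in, 0.0115 to 0.0235% of counts, stayed out of library sizes and tests. CPM used edgeR 4.0.16 TMM factors over all transcripts (R 4.3.3). A share is a section mean over the sum of the 5 section means. The quasi-likelihood test kept 28504 transcripts (filterByExpr), with section and egg in the model over 15 libraries (8 residual degrees of freedom), Benjamini-Hochberg adjustment over all tested and a threshold of 0.05. Each egg gave all sections, so the egg was kept as a replicate block. Deviations from section means (transcripts of at least 1 CPM) correlated at 0.266 to 0.764 within an egg and -0.644 to 0.328 between eggs. No 2 libraries of a section agreed within sampling noise (chi-square divided by its degrees of freedom, 4.77 to 27.2). Within eggs, steps used log2(CPM + 0.5).

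Named transcripts are the 2 per direction with the largest change for B against A and D against C among members called with 1 direction in 3 eggs, the 2 with the highest CPM and the 2 nearest to the median shares. Others are named with their reason. The script was tested on simulated data. Alternatives were DESeq2 1.42.0 (size factors and test), other scalings, filters, left-out eggs and libraries, and sums per Trinity gene. No sequence of these transcripts was used here.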

Additional observations from a re-analysis of the deposited data

Results flagged for a closer look

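Signals outside the transcript counts moved with section. Mean spike-in CPM was 147 ± 19.1 for C and 229 ± 21.4 for D (SD, n = 3), a ratio of 1.56. The spike-in had 693 to 3407 counts per library. The deposited factor relative to the TMM size was 1.32 times as high in D as in C. Both values bear on the C to D step and on the counts under those scalings, and their part in it was not tested beyond them.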

How the results depend on the processing

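The number of transcripts that met the rule was 249, 224 to 262 without 1 egg (TMM recomputed), 152 with the deposited factor and 138 with the spike-in, of which 128 and 113 were among the 249. Without the egg as a replicate block, 36 were called for B against A, 60 for D against C and 11 for the contrast of the steps. These stood beside 1.35, 0.66 and 0.232% of all transcripts tested. With the deposited factor, B against A gave 167 and the contrast of the steps 107, beside 19.5 and 45.3% of all transcripts tested, and with the spike-in D against C gave 25, beside 41.3%. Leaving out 1 egg gave 48 to 72 for B against A, 49 to 147 for D against C and 8 to 55 for the contrast of the steps, and leaving out 1 library gave 59 to 80, 86 to 152 and 40 to 64. Over all transcripts tested, the shares called without 1 egg ran from 1.34 to 3.75, 0.499 to 2.61 and 0.175 to 1.75% in turn. Without 1 library they ran from 2.09 to 4.72, 1.09 to 3.5 and 0.908 to 2.54%. The counts for B against A, D against C and the contrast stayed within 1.5 times with DESeq2 size factors, DESeq2's test, total counts, both filters, the robust variance estimate and sums per Trinity gene, as did the first 2 in fits to the compared sections alone. The number that met the rule did so with DESeq2 size factors, total counts and sums per Trinity gene. The mean of the medians in the egg left out was 10.7 to 11.0% under the 4 other scalings, against 11.0%. The rule limits this share in the choosing eggs, so a median inside its window is favoured beforehand. Whether the animal share depends on the scaling is therefore not read from these values. Between the set and its neighbours, the A to B difference from the set with at most 5% in A plus B was -0.65, and -0.84 with a pseudocount of 0.1 and -0.33 with 2. With 2, the difference from the weaker set was 0.28 and the C to D difference from the set with at least 50% in E was -0.77.

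For the transcripts described by name, 448 values were recomputed, of which 380 had the same direction and call, 58 lost the call, 2 gained it and 8 reversed. D over C reversed with the deposited factor for trinitytrinLocDN49973c3g1t5 (-0.01) and trinitytrinLocGG_6335c0g1t1 (-0.14), and with the spike-in for both (-0.26 and -0.39), trinitytrinLocGG_65371c1g1t2 (-0.06) and trinitytrinLocDN55284c0g1t1 (-0.06). B over A of trinitytrinLocDN54550c1g1t5 was -0.05 to 0.17 on leaving out 1 egg, negative without egg 10, and -0.06 without section B of egg 10. A scaling shifts every transcript of a library alike. Fewer samples remain when an egg is dropped, and without egg 10 the D against C count was 147, against 127 with all eggs. For changes under settings other than a scaling, the cause was not tested.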
